A study of Saccharomyces cerevisiae with 18 samples.

Results

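Budding yeast of strain RDY234 was exposed to 4-thiouracil (4tU) for 4 min, and 6 of the 18 libraries of the series bear on what that exposure did and how fast each transcript took up the label. The 3 libraries of the DMSO group were set against the 3 libraries of the control group. In SLAM-seq, 4tU enters RNA made during the exposure, iodoacetamide alkylates it, and sequencing then reports the alkylated base as C in place of T. The strain carries pGPD1-OsTIR1::HIS3, the tagged alleles BDF1-3XV5-mAID-URA3 and BDF2-3XV5-mAID-kanMX, and pBDF1-BDF1::TRP1, so Bdf1 and Bdf2 bear an auxin-inducible degron and an untagged BDF1 gene is present as well. All 6 cultures had these alleles and were grown in YPD at 30 °C. The DMSO group got DMSO for 25 min and then 5 mM 4tU for 4 min. The control group is labelled as without auxin (IAA) and without 4tU. The treatment protocol describes DMSO alone in place of either agent, but the labels do not state it for the control cultures themselves. 4tU-labelled Schizosaccharomyces pombe cells were added to each S. cerevisiae sample as a spike-in, and 3′ mRNA-seq libraries were made from biological triplicates named A, B and C. RDY73, the parallel strain without the untagged BDF1 gene, had its own DMSO and control libraries under the same protocol and shares no library with RDY234.

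Thiolated uracil is both a label and a foreign thiol-containing base. Budding yeast answers oxidants, electrophiles and many drugs through the transcription factor Yap1, which moves into the nucleus when its cysteines are modified and binds short promoter elements, the Yap1 response elements. Its known targets include reductases, enzymes of glutathione and thioredoxin metabolism, and drug efflux pumps of the plasma membrane. In a short pulse, the share of a gene's reads that carry label is higher for a transcript that is replaced quickly, as mRNAs of cell-cycle regulators and transcription factors often are, and lower for one that persists, as mRNAs of ribosomal proteins and glycolytic enzymes often do.

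Promoters were read because the genes that rose most included several with known Yap1 dependence. For 5 raised genes with a match and 1 raised gene without, the 250 bases before the coding start are given here from the R64 reference (RefSeq), 5′ to 3′ on the gene's own strand. Capitals mark the Yap1 response element TTACTAA, which reads TTAGTAA on the other strand, and its variant TGACTAA, which reads TTAGTCA.
YLR460C (chrXII:1060888-1061137, minus strand): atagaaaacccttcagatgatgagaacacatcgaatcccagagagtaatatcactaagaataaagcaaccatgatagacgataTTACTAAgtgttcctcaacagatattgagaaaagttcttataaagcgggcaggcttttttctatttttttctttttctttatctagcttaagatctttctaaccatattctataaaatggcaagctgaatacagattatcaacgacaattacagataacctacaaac
OSI1 (chrXI:304864-305113, plus strand): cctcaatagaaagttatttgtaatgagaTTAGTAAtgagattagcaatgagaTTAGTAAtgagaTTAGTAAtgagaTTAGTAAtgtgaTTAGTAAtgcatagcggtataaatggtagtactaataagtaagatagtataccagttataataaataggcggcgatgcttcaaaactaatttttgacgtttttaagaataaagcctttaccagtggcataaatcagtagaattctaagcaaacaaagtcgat
FLR1 (chrII:254210-254459, minus strand): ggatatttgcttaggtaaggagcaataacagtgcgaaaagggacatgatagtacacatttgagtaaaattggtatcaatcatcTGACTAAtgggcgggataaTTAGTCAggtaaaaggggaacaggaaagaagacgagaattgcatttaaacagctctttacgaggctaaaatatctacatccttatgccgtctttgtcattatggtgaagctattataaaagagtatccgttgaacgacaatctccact
YLR108C (chrXII:368125-368374, minus strand): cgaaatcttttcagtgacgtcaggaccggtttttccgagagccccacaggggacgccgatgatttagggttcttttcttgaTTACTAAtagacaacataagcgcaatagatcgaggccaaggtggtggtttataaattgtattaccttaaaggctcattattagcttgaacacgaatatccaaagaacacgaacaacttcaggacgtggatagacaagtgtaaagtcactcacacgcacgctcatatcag
GTT2 (chrXII:21840-22089, minus strand): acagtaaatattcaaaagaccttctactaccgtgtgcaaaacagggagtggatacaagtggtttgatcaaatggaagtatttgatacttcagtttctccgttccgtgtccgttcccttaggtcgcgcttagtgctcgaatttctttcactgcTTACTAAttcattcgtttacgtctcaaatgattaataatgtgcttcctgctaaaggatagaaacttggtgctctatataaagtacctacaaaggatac
OYE2 (chrVIII:462252-462501, plus strand): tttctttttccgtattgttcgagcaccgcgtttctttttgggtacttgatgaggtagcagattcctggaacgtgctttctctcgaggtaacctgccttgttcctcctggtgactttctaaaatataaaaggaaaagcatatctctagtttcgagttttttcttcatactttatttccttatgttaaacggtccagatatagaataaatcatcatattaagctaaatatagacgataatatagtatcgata
OSI1 had 5 copies of the element between 222 and 162 bases before its start, and FLR1 had 2 copies of the variant. YLR460C, YLR108C and GTT2 each had 1 copy, and OYE2 had neither form. Of the 22 raised protein-coding genes, 10 (45.5%) had either form in this window, against 566 of 5994 promoters (9.44%) of the same length. The lowered genes had it in 2 of 10 (20.0%). Members of a list of Yap1 and oxidative-stress genes that were not raised had it in 14 of 36 (38.9%). The element was chosen after the raised genes were seen, so the count among them is not independent evidence. YLR460C and YCR102C are both counted, although their promoters are identical at 222 of 226 aligned bases. A match describes the letters and is no evidence of binding, and the absence of a match says nothing about the factor.

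Depth ranged from 5345864 to 8024024 reads in S. cerevisiae gene windows, and the S. pombe windows had 445137 to 656134, each window being a gene plus the 250 bp downstream of it. A read is called labelled when it holds 2 or more T-to-C conversions. Such reads made up 7.29% ± 0.122 of S. cerevisiae reads with 4tU and 0.373% ± 0.0356 without it (SD, n = 3 each). S. cerevisiae reads per S. pombe read were 12.4 ± 1.38 in the control group and 12.2 ± 0.335 in the DMSO group (two-sided exact permutation p = 0.9). Control replicate C stood apart at 10.9, against 13.5 and 12.9 for control A and B. Every level given here is in reads scaled to the S. pombe reads of the library. In such bulk samples, less RNA per cell and fewer cells cannot be told apart. The engineered loci did not pass the test. BDF1 had a log2 change of 0.04 ± 0.12 (SE) and BDF2 0.05 ± 0.13, and TRP1, the marker of the untagged copy, had 302 to 365 scaled reads in each of the 6 libraries against a mean of 14.1 in RDY73 with DMSO.

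After 4 min of 4tU, 24 gene windows were higher and 11 were lower in total reads, and the rest of the transcriptome did not pass the test. The 5 largest rises were in YLR460C, PAU4, YCR102C, OSI1 and FLR1, and several oxidoreductases and the efflux pump ATR1 also rose. The falls included TDA1, RPI1 and NRG1, which act in glucose signalling or Ras-cAMP signalling, and the transport gene MEP3, the glycogen synthase gene GSY1 and a tRNA gene. Calls were made at an adjusted p of 0.05 in edgeR's quasi-likelihood test, with p-values adjusted by Benjamini-Hochberg across 6100 windows. The background rates are thus 0.393% raised and 0.18% lowered. A total of 436 windows had an unadjusted p below 0.05, and the median log2 change over all windows was −0.02. The 3 DMSO and 3 control libraries did not overlap in any of the 35 called windows, a pattern shown by 10.8% of all tested windows. Of the called windows, 11 rose more than 2-fold and 1 fell more than 2-fold. Without control C, whose S. cerevisiae reads per S. pombe read were lowest, 16 windows rose and 20 fell, and with TMM scaling over the S. cerevisiae genes 74 rose and 29 fell. Without DMSO A or B, the total fell to 22 or 21 calls.

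**Figure D1:**
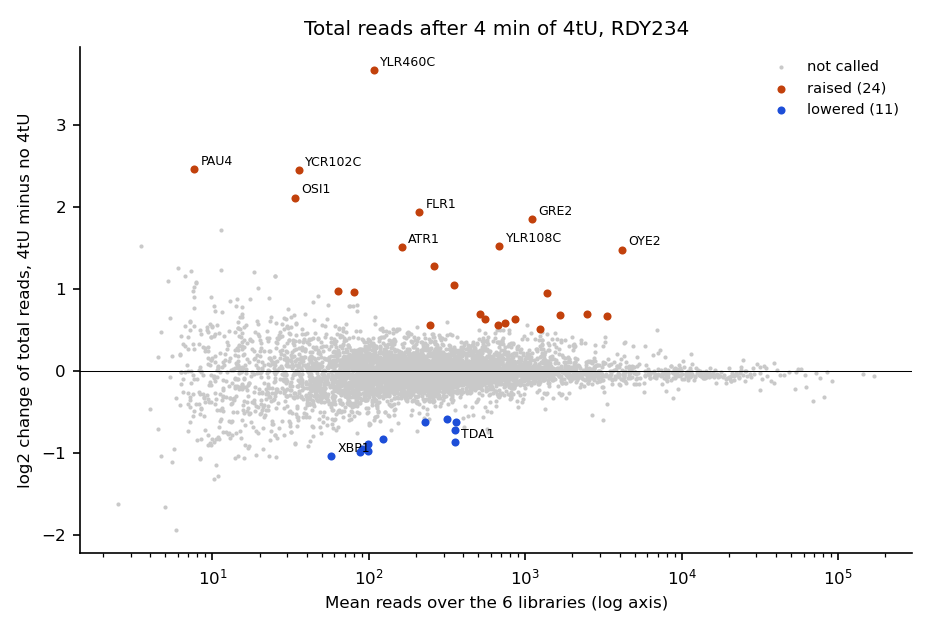
Each point is 1 of 6100 gene windows, with its mean reads over the 6 RDY234 libraries on the x axis (log axis) and its log2 change in scaled total reads (4tU minus no 4tU) on the y axis. The 24 raised windows (orange) reach 3.67, and the 11 lowered windows (blue) reach −1.03.

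YLR460C had the largest rise. Its protein is related to quinone oxidoreductases. The window (chrXII:1059757-1060887, minus strand) had 20.3, 17.2 and 17.6 scaled reads in control A, B and C. With 4tU it had 253, 226 and 227. Every DMSO library was thus more than 10 times every control library, a log2 change of 3.67 ± 0.22 (SE), or 12.7-fold (edgeR adjusted p = 5.79e-17). YCR102C (chrIII:304361-305467, minus strand) is a close relative whose promoter is identical to that of YLR460C at 222 of 226 aligned bases. It had 18.4, 12.6 and 7.92 scaled reads without 4tU and 72.9, 60.2 and 80.4 with it, a log2 change of 2.45 ± 0.33 (adjusted p = 2.07e-06). Reads of these similar genes could be assigned to either, so how the rise divides between them is uncertain. PAU4, a seripauperin gene next to YLR460C and a member of a large family of near-identical genes, had 3.88, 3.44 and 0.880 scaled reads without 4tU and 19.2, 19.0 and 6.48 with it. Its log2 change of 2.46 ± 0.61 rested on few reads, and its call (adjusted p = 0.0390) was lost without any 1 of control A, B or C or DMSO A or B (adjusted p 0.0561 to 0.274).

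Both called efflux pumps export drugs and other foreign compounds. FLR1 (chrII:252563-254209, minus strand) encodes a multidrug transporter of the major facilitator superfamily and is a textbook Yap1 target. It had 115, 89.4 and 92.4 scaled reads without 4tU and 414, 389 and 339.8 with it. The groups were far apart, with a log2 change of 1.94 ± 0.15 (adjusted p = 4.53e-14). ATR1 (chrXIII:38196-39824, plus strand), a transporter that gives resistance to aminotriazole, had 109, 107 and 73.9 scaled reads without 4tU. With 4tU it had 292, 264 and 269.8, a log2 change of 1.52 ± 0.18 (adjusted p = 7.09e-08). Of 24 tested genes for drug and weak-acid efflux, these 2 rose, 22 did not pass the test, and the list's median log2 change was −0.03. Over all windows 0.393% rose.

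Oxidoreductases and HSP31 made up the next group. OYE2 (chrVIII:462502-463704, plus strand) is the main NADPH dehydrogenase of the old yellow enzyme family, and it was by far the most abundant of the genes that rose more than 2-fold. It went from 2628, 2701 and 2112 scaled reads to 6614, 7064 and 7080.2, a log2 change of 1.48 ± 0.12 (adjusted p = 2.09e-12). GRE2 (chrXV:43694-44722, plus strand), a methylglyoxal reductase, had 614, 543 and 495 scaled reads without 4tU and 1975, 1878 and 2111 with it. Its log2 change was 1.85 ± 0.12 (adjusted p = 1.04e-15), in a window that overlaps another on its strand. HSP31 (chrIV:1501447-1502160, minus strand) encodes a DJ-1 family protein that detoxifies methylglyoxal. Its scaled reads were 166, 182 and 169.8 without 4tU and 419.5, 436 and 401 with it, a log2 change of 1.28 ± 0.14 (adjusted p = 1.85e-08). The weaker rises were in YML131W (1.05 ± 0.15, adjusted p = 4.90e-06), YNL134C (0.70 ± 0.13, adjusted p = 0.000819, overlapping window) and ADH6 (0.52 ± 0.13, adjusted p = 0.0441), which encode alcohol dehydrogenase or oxidoreductase family proteins. The ADH6 call was lost without control B or C or DMSO B or C (adjusted p 0.120 to 0.263).

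OSI1 and YLR108C have no well-established function. OSI1 (chrXI:305114-305884, plus strand), whose promoter has 5 copies of the element, had 16.5, 18.3 and 9.68 scaled reads without 4tU and 66.5, 65.5 and 58.4 with it. Its log2 change was 2.11 ± 0.34 (adjusted p = 7.94e-05). YLR108C (chrXII:366667-368124, minus strand) had 455, 464 and 294 scaled reads without 4tU and 1256, 1141 and 1074 with it, a log2 change of 1.52 ± 0.14 (adjusted p = 5.55e-11). Control C was the lowest control library for both.

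Of the raised genes, GSH1, GTT2 and SRX1 act in glutathione or peroxide metabolism. GSH1 (chrX:234320-236356, minus strand) encodes the enzyme of the first, rate-limiting step of glutathione synthesis, and had 504, 414 and 387 scaled reads without 4tU and 669, 707 and 732 with it. Its log2 change was 0.69 ± 0.13 (adjusted p = 0.00179). GTT2, a glutathione S-transferase, rose by 0.98 ± 0.22 (adjusted p = 0.0148), from 43.6, 55.0 and 45.8 to 83.1, 96.1 and 104. SRX1 is sulfiredoxin, which repairs overoxidised peroxiredoxins, and rose by 0.97 ± 0.22 (adjusted p = 0.0170) from 67.8, 73.3 and 42.2 to 102, 146 and 105. GTT2 lost its call without control A or C or DMSO B or C (adjusted p 0.0527 to 0.0996), and SRX1 without control C or DMSO B (0.141 and 0.274). CCS1, the copper chaperone of superoxide dismutase, rose by 0.57 ± 0.12 (adjusted p = 0.0115, and 0.117 without DMSO A).

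Other raised genes have roles outside the oxidative response. DRE2, which acts in cytosolic iron-sulfur cluster assembly, rose by 0.68 ± 0.13 (adjusted p = 0.00185). It had 1557, 1525 and 1171 scaled reads without 4tU and 2251, 2348 and 2224 with it. ROX1, the repressor of hypoxic genes, rose by 0.63 ± 0.13 (adjusted p = 0.00562), and REI1, a factor of late 60S ribosome maturation, by 0.63 ± 0.14 (adjusted p = 0.00886). YND1, a Golgi nucleoside diphosphatase and triphosphatase, rose by 0.59 ± 0.14 (adjusted p = 0.0385), and RIB1, the first enzyme of riboflavin synthesis, by 0.57 ± 0.14 (adjusted p = 0.0481). Single libraries decided these last 4 calls. ROX1 was lost without control C or DMSO A (adjusted p 0.0515 and 0.0849), REI1 without control C or DMSO A or B (0.0729 to 0.0995), YND1 without control C or DMSO A or B (0.157 to 0.298), and RIB1 without any 1 of the 6 (0.0909 to 0.258).

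The 2 raised windows that are not protein-coding were ETS1-1 and ETS1-2, the 5′ external transcribed spacers of the ribosomal RNA precursor on chromosome XII, which are removed early in rRNA processing. ETS1-1 had 1229.5, 991 and 928 scaled reads without 4tU and 2223, 2003 and 1886 with it, a log2 change of 0.96 ± 0.14 (adjusted p = 7.33e-06). ETS1-2 rose by 0.67 ± 0.13 (adjusted p = 0.00245, and 0.0803 without DMSO A). The copies of the rDNA repeat are near-identical and their windows overlap others, so the division of reads between them is uncertain. In RDY73 the changes were 0.33 ± 0.14 and 0.31 ± 0.13 and did not pass the test (adjusted p = 0.599 and 0.612). In RDY234 the other spacer windows had changes below 0 and none passed the test. ITS1-1 changed by −0.68 ± 0.18 (adjusted p = 0.0629), ITS1-2 by −0.40, ETS2-1 by −0.30, ETS2-2 and ITS2-2 by −0.23 and ITS2-1 by −0.14. The windows of the whole precursor, RDN37-1 and RDN37-2, changed by −0.20 and −0.32 and did not pass the test either. With their 250 bp downstream the ITS windows run into mature rRNA, and the RDN37 windows contain it. ITS2-1, for example, had a mean of 21778 scaled reads without 4tU and a net labelled share of only 1.55%. These windows therefore cannot show whether the rest of the precursor rose.

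**Figure D2:**
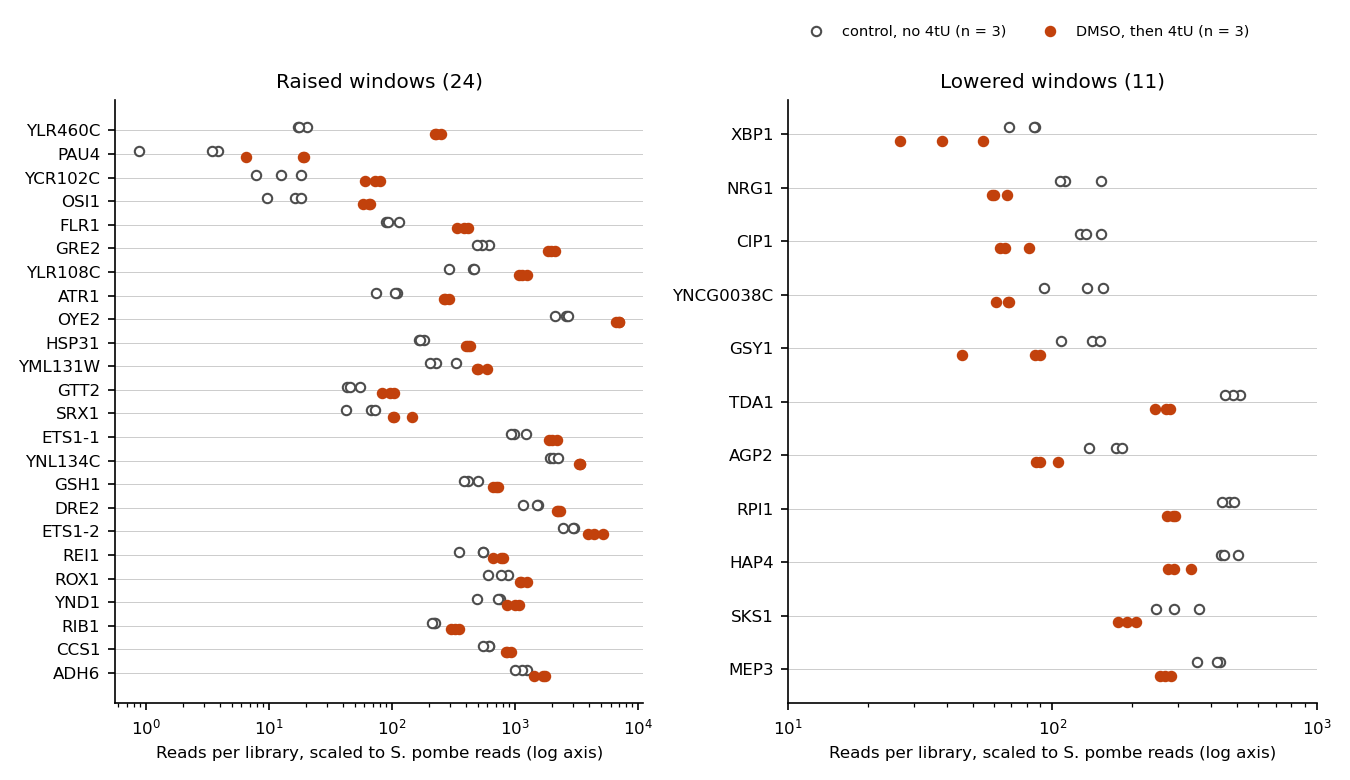
Scaled reads (log axis) of each called window in the 3 RDY234 control libraries (open points) and the 3 RDY234 DMSO libraries with 4tU (filled points), 1 point per library. The 2 sets of points do not overlap in any of the 24 raised or 11 lowered windows, and the gap is widest for YLR460C.

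Most genes of the oxidative-stress list did not pass the test. The list of Yap1 and oxidative-stress genes was written with earlier results of these data known, so its count is not independent evidence. Of its 48 tested members, 12 rose and 36 did not pass the test, and its median log2 change was 0.14, where 0.393% of all windows rose. The 12 were YLR460C, OSI1, FLR1, GRE2, YLR108C, ATR1, OYE2, YML131W, GTT2, SRX1, YNL134C and GSH1. Some genes of the thioredoxin and superoxide pathways, named here after their values were seen, had changes near 0. Others tied to these pathways rose, SRX1 by 0.97 ± 0.22 and CCS1, which is outside the list, by 0.57 ± 0.12. TRX2, a thioredoxin, changed by 0.08 ± 0.13, and TRR1, thioredoxin reductase, by 0.15 ± 0.12. TSA1, the main peroxiredoxin, changed by 0.07 ± 0.12, and SOD1, the cytosolic superoxide dismutase, by 0.06 ± 0.12. YAP1 itself had 427, 506 and 443 scaled reads without 4tU and 462, 395 and 464 with it, and its groups overlapped. The element or its variant was found in 7 of the 12 raised list members and in 14 of the 36 members not raised.

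Of the lowered genes, TDA1 and RPI1 had the most stable calls. TDA1 (chrXIII:852630-854390, plus strand) encodes a protein kinase that phosphorylates hexokinase Hxk2. It had 514, 482 and 451 scaled reads without 4tU and 269, 278 and 245 with it, and fell by 0.87 on the log2 scale (SE 0.14, adjusted p = 4.01e-05). RPI1 (chrIX:136654-137877, minus strand), a transcriptional regulator known as an antagonist of the Ras-cAMP pathway, had 466, 437 and 487 scaled reads without 4tU. With 4tU it had 271, 290.5 and 287, and it fell by 0.71 (SE 0.14, adjusted p = 0.00245). NRG1, a repressor of glucose-repressed genes, fell by 0.99 (SE 0.23, adjusted p = 0.0224) from 152, 111 and 106 to 58.8, 60.2 and 67.4. SKS1, a kinase that takes part in adaptation to low glucose, fell by 0.62 (SE 0.15, adjusted p = 0.0396). HAP4, the activator subunit of the complex that induces respiratory genes, fell by 0.62 (SE 0.15, adjusted p = 0.0325).

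The other falls were in stress, cell-cycle and transport genes. XBP1, a stress-induced repressor, fell by 1.03 (SE 0.23, adjusted p = 0.0148) from 86.2, 68.8 and 85.4 scaled reads to 38.4, 26.4 and 54.5. CIP1, an inhibitor of cyclin-dependent kinase, fell by 0.97 (SE 0.22, adjusted p = 0.0141) from 127, 134 and 152 to 81.9, 63.4 and 66.1. GSY1, a glycogen synthase, fell by 0.88 (SE 0.20, adjusted p = 0.0158), and MEP3, an ammonium permease, by 0.58 (SE 0.13, adjusted p = 0.0170). AGP2, a plasma-membrane regulator of polyamine and carnitine uptake, fell by 0.82 (SE 0.18, adjusted p = 0.0146), and the tRNA gene YNCG0038C by 0.95 (SE 0.22, adjusted p = 0.0221). These levels are low, and single libraries decided most of the calls. TDA1 and RPI1 kept theirs in every alternative run, and the other 9 lost theirs in at least 1. The number of lowered windows was 4 without control A, 20 without control C, 5 without DMSO A, 4 without DMSO B and 5 without DMSO C. XBP1 was lost without control A or C or DMSO A or B (adjusted p 0.0515 to 0.321) and NRG1 without control A or DMSO A, B or C (0.0587 to 0.162). CIP1 was lost without control C or DMSO B or C (0.0515 to 0.144), GSY1 without control A or C or DMSO B (0.0561 to 0.436), and HAP4 without control A or DMSO A or C (0.127 to 0.204). AGP2 was lost without control A or C or DMSO A or B (0.0558 to 0.155). MEP3, SKS1 and YNCG0038C were each lost without any 1 library but control C (0.0593 to 0.363).

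Some gene lists had medians away from 0 although few or none of their members passed the test. Ribosome biogenesis genes, which make and assemble ribosomal subunits in the nucleolus, had a median log2 change of 0.24 in 148 tested members. Of these, 141 lay above 0, where 2773 of 6100 windows did so over all, but only REI1 rose (0.393% of all windows rose). RRP9, a U3 small nucleolar ribonucleoprotein component, had a change of 0.50 ± 0.14 (adjusted p = 0.0936), and NOP14, of the small-subunit processome, 0.38 ± 0.13 (adjusted p = 0.300). Under TMM scaling, 20 of the 148 rose (background 1.21% raised and 0.475% lowered). The RDY73 median was also 0.24, with 2 members raised. Genes for RNA polymerases I and III had a median of 0.11 and no call, and cytosolic ribosomal protein genes a median of −0.04 and no call in 138.

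Several lists lay slightly below 0. For their counts, the rates over all windows were 0.18% lowered and 0.393% raised. Glucose regulators and hexose transporters had a median log2 change of −0.18 in 30 tested members, of which NRG1, TDA1, RPI1 and SKS1 fell and none rose. HXT7, a high-affinity hexose transporter, changed by −0.36 ± 0.16 (adjusted p = 0.593) and HXT2 by −0.28 ± 0.13 (adjusted p = 0.630). The Msn2/Msn4 general stress list, which answers glucose loss and many stresses, had a median of −0.21 in 38 members, and XBP1 and GSY1 fell. Cell-cycle regulators had a median of −0.13 in 34, with CIP1 fallen, and CLN3, the G1 cyclin that sets size at Start, had a change of −0.56 ± 0.15 (adjusted p = 0.0629). Among 58 transcription-factor genes ROX1 rose and XBP1 and HAP4 fell. The other 20 lists had no call, among them heat-shock chaperones, the proteasome, the iron and phosphate regulons, and pyrimidine synthesis with uracil salvage, whose medians lay between −0.05 and 0.02.

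RDY73 gave a second measurement of the exposure in separate libraries. All 24 raised windows also had a positive log2 change in RDY73, and all 11 lowered windows a negative one. Over all tested windows 58.1% were positive and 41.9% negative in RDY73. Of these windows 19 and 3 were also called there, where 31 windows rose (0.508%) and 9 fell (0.148%). YLR460C changed by 3.87 ± 0.24 in RDY73, OYE2 by 1.96 ± 0.13, OSI1 by 2.21 ± 0.35 and TDA1 by −0.91 ± 0.14. The test of the difference between strains called no window (0 of 6100, 79 with an unadjusted p below 0.05 in edgeR, and no call in DESeq2). Its smallest adjusted p was 0.412, for FLR1, which changed by 1.94 ± 0.15 in RDY234 and 2.88 ± 0.15 in RDY73, a difference of −0.93 ± 0.21. FLR1 also began at a lower level in RDY73, with 57.3 ± 2.22 scaled reads without 4tU against 99.0 ± 14.2 in RDY234 (SD, n = 3). Across the 35 called windows the changes in the 2 strains had a Spearman rho of 0.94, and across all 6100 windows one of 0.32, as descriptions over genes that share libraries.

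**Figure D3:**
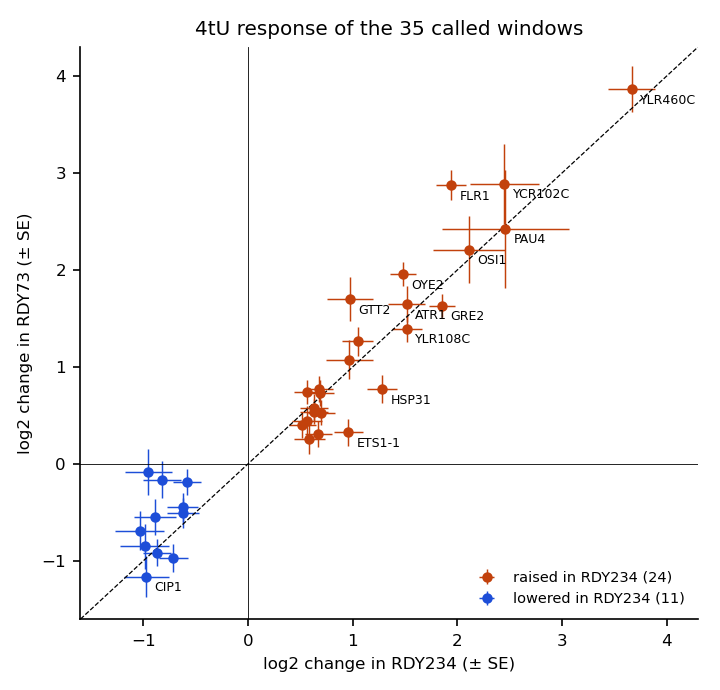
Log2 change of total reads with 4tU in RDY234 (x axis) and in RDY73 (y axis), with SE bars, for the 35 windows called in RDY234, and the dashed line marks equal change. All 24 raised windows lie above 0 on both axes and all 11 lowered windows below 0, and FLR1 at 1.94 and 2.88 lies furthest above the line.

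Label uptake was read per gene as the net share, which is the mean percentage of labelled reads with 4tU minus that without 4tU. It was tested for 4549 genes with a mean of at least 100 reads. In 4528 of them (99.5%) the labelled share was above the control in edgeR's test with adjustment over the 4549. The median net share was 13.9%, the middle 50% of genes ran from 8.88% to 19.9%, and the highest value was 63.3%. Genes over 2 times the median, 27.9%, or under 0.5 times it, 6.97%, and past the test against the median gene were called high or low. There were 321 high genes (7.06%) and 767 low genes (16.9%). The median standard error of a net share was 1.20 percentage points.

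Cell-cycle genes stood among those labelled most. CLB6, a B-type cyclin of early S phase, had 67.0%, 65.1% and 61.8% of its reads labelled in DMSO A, B and C, against 1.00% to 1.59% in the controls. Its net share of 63.3% ± 1.53 (SE) was the highest of all tested genes, and its total reads did not pass the test. SRG1, a non-coding transcript that represses SER3, had 62.1% ± 0.635 in an overlapping window, and SUT1, a regulator of sterol uptake, 48.8% ± 1.33. Among genes with at least 500 reads and no overlapping window, the highest was SCW11, a cell-wall glucanase made in daughter cells, at 48.4% ± 1.45. CLN3 had 39.4% ± 1.79. AMN1, which antagonises mitotic exit, had 39.8% ± 1.44, GIC2, an effector of the polarity GTPase Cdc42, 40.2% ± 2.95, and NEM1, of the phosphatase that controls phospholipid synthesis, 40.9% ± 0.967. MRPL32, a mitochondrial ribosomal protein gene, had 37.5% ± 0.994.

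At the other end stood mitochondrially encoded RNAs. The mitochondrial 15S rRNA had 0.259%, 0.261% and 0.259% labelled with 4tU, against 0.0370% to 0.229% without it, a net share of 0.134% ± 0.0557. OLI1 and ATP8, subunits of the mitochondrial ATP synthase, had 0.436% ± 0.144 and 0.369% ± 0.465. Of 24 tested genes on the mitochondrial chromosome 22 were low, with a median of 0.346%. Of the 6 mitochondrially encoded protein genes on the list, 3 were above their control. Among nuclear genes with at least 500 reads and no overlapping window the lowest was HSP12, which encodes a small stress-induced membrane protein, with 0.459%, 0.297% and 0.718% with 4tU and 0.127% to 0.452% without. Its labelled share was not above the control (edgeR adjusted p = 0.344) at a mean of 1030 reads a library. FZO1, the mitofusin, had 0.580% ± 0.0573 and ERV2, an endoplasmic-reticulum sulfhydryl oxidase, 0.592% ± 0.147.

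Gene lists were spread over almost the whole range. Of 32 tested cell-cycle regulators 19 were high and none low, with a median net share of 28.9%, and 14 of 46 transcription-factor genes were high and none low, at 24.4%. Mating genes had a median of 19.7% and mitochondrial ribosomal proteins 19.0%, with 8 of 68 of the latter high. INO4, an activator of phospholipid genes at the middle of the transcription-factor list, had 25.5%, 25.0% and 24.7% labelled in the 3 DMSO libraries. STD1, a regulator of the glucose-sensing pathway, was the highest of the glucose list at 47.3% ± 1.52, where HXT7 was the lowest at 3.75% ± 0.419.

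Cytosolic ribosomal proteins and glycolysis were the lowest nuclear lists. Of 138 ribosomal protein genes 128 were low, with a median of 3.50%. RPL29, the lowest of them, had 1.68%, 1.73% and 1.82% labelled with 4tU and 0.378%, 0.370% and 0.359% without it. RPL22B had 17.3% ± 0.885 in an overlapping window and was the highest. Of 23 glycolytic and fermentation genes 17 were low, with a median of 4.41%, among them TDH3, glyceraldehyde-3-phosphate dehydrogenase, at 2.66% ± 0.0557 and PDC1, pyruvate decarboxylase, at 1.99% ± 0.0511. Msn2/Msn4 stress genes had a median of 5.65% (17 of 28 low), translation factors 7.51% (18 of 40 low), cell-wall and plasma-membrane genes 7.92% (13 of 30 low), and the proteasome 9.72% (2 of 36 low). Its regulator RPN4, which activates proteasome genes, stood apart in that last list at 33.1% ± 0.860.

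Ribosome biogenesis genes were labelled unlike the ribosomal proteins they handle. Their median was 16.0% in 147 tested members, with 7 high and 5 low. RRP9 had 33.1% ± 1.56 and RRP1, of 60S assembly, 4.61% ± 0.0997 in an overlapping window. Heat-shock chaperones had a median of 9.98%, from SSE1, an Hsp110 chaperone, at 3.36% ± 0.173 to CUR1, a sorting factor for misfolded proteins, at 42.5% ± 2.71.

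**Figure D4:**
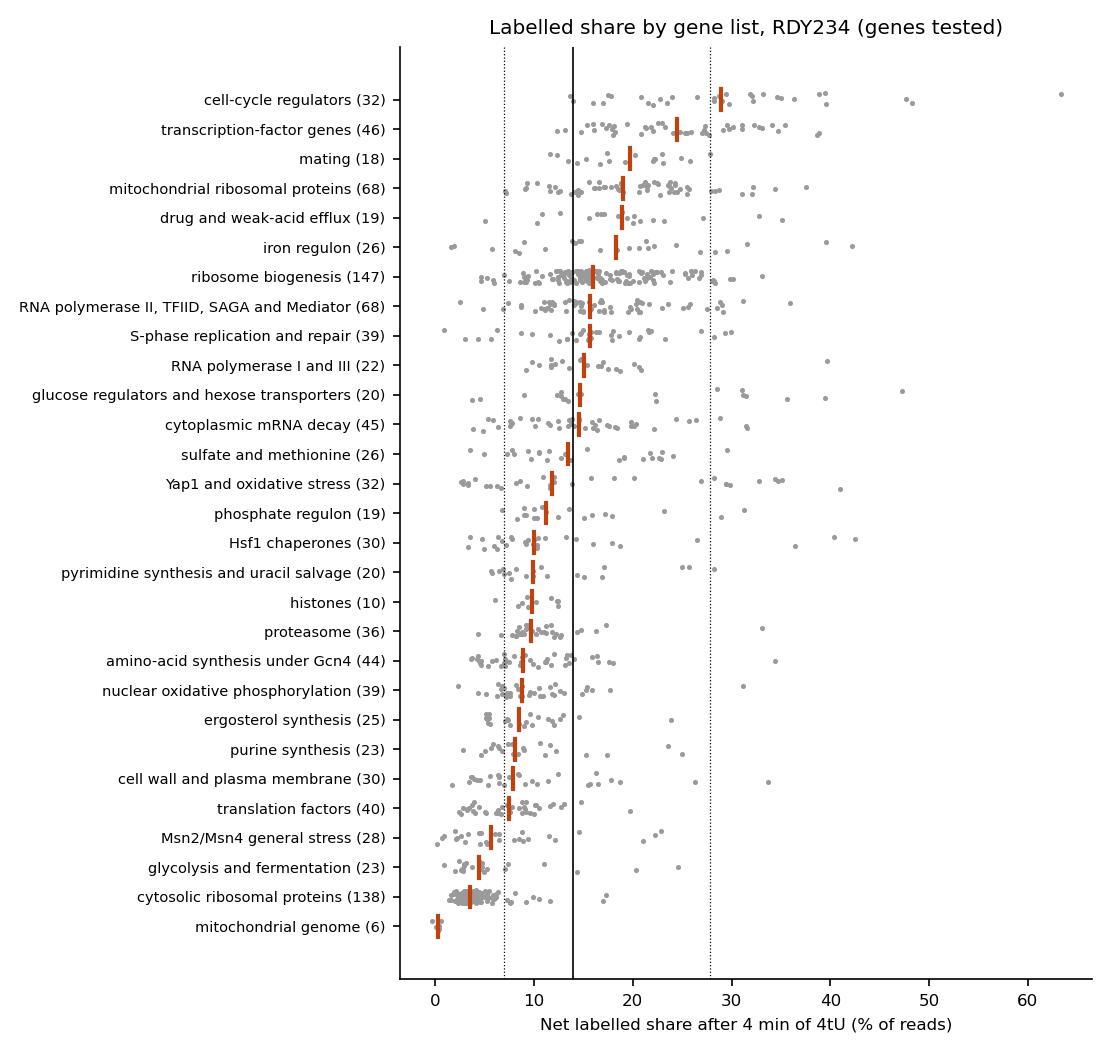
Net labelled share after 4 min of 4tU (x axis, percent of reads) for each tested gene (grey points) of 29 gene lists, with the list's median as an orange bar and the number of genes tested in brackets. The solid line is the median of all tested genes, 13.9%, and the dotted lines are the limits for low (6.97%) and high (27.9%), with cell-cycle regulators at the top and the mitochondrial genome at the bottom.

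The order of genes was similar between replicates and measures. Net shares had a Spearman rho of −0.06 with the number of Ts covered per read. Their rho was 0.94 with net conversions per covered T, and labelled shares of the DMSO replicates had rhos of 0.87 to 0.88 with each other. In RDY73 the median net share was 8.81%, and the 2 strains had a rho of 0.91. Ribosomal protein genes had a median of 2.04% there and cell-cycle regulators 18.6%. Counted per T and relative to the median gene, the ribosomal protein list was at 0.24 against 0.25 per read and the cell-cycle list at 1.94 against 2.08. Cell-wall genes were at 0.41 against 0.57, with 42.9 Ts covered per read where the median gene had 33.0. Abundant genes had lower shares, with a rho of −0.51 between net share and log10 mean reads. These are descriptions over genes measured in the same libraries.

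The net labelled shares of the called windows, measured on the same reads, spread widely. Those of the 24 raised windows ran from 14.4% in ETS1-2 to 43.0% in ETS1-1, against the median of 13.9% for the tested genes. Of the raised windows, YCR102C, OSI1, GTT2, SRX1 and PAU4 had under 100 reads on average and were not tested for their share. YLR460C and ATR1 reached that depth only through their DMSO libraries, with control means of 18.4 and 96.7 scaled reads. FLR1 was close to the limit in the controls, at 99.0 scaled reads, and the limit itself was set on unscaled reads. Net shares of the 11 lowered windows ran from 4.49% ± 0.109 (SE) in GSY1 and 7.38% ± 3.02 in XBP1, neither deep enough for the test, to 39.4% ± 1.46 in SKS1. Pooled over the 22 raised protein-coding genes, 26.9% ± 0.876 of reads were labelled with 4tU, and over the 10 lowered genes 27.0% ± 0.774, against 7.20% ± 0.118 in all other tested windows (SD, n = 3). Pooling weights each window by its reads, and abundant genes had lower shares (rho −0.51), so the 7.20% lies below the 13.9% of the median gene. How much of the contrast comes from this weighting was not tested. In the control libraries, which had no 4tU, the raised genes had 0.869% ± 0.175 labelled reads and the other windows 0.371% ± 0.0357.

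For a raised gene, the reads above its control level can be set beside the labelled reads in the same libraries. A newly made read with fewer than 2 conversions is not counted as labelled, so the labelled percentage can lie below the percentage of new reads. Over all S. cerevisiae reads, 0.924% of covered Ts were converted with 4tU and 0.214% without it. These values average over old and new reads and are not the conversion rate of newly made RNA. Whether added reads without a label were newly made was not tested. In YLR460C 92.1% of the reads with 4tU were above the control level and 43.6% ± 2.21 (SD, n = 3) were labelled. The pair of values was 74.0% and 39.6% in FLR1, 65.1% and 42.6% in YLR108C, and 64.2% and 30.6% in OYE2. HSP31 had 58.9% above the control level and a net labelled share of 17.5%, and GRE2 had 72.3% above the control level and 31.4% labelled. In ROX1 the order was the other way, with 35.4% above the control level and 39.9% labelled, and ETS1-1 had 48.5% and 46.4%. Among the lowered genes, the labelled percentage with 4tU was 40.0% in SKS1 and 35.7% in RPI1, but 8.13% in XBP1 and 4.49% in GSY1.

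**Figure D5:**
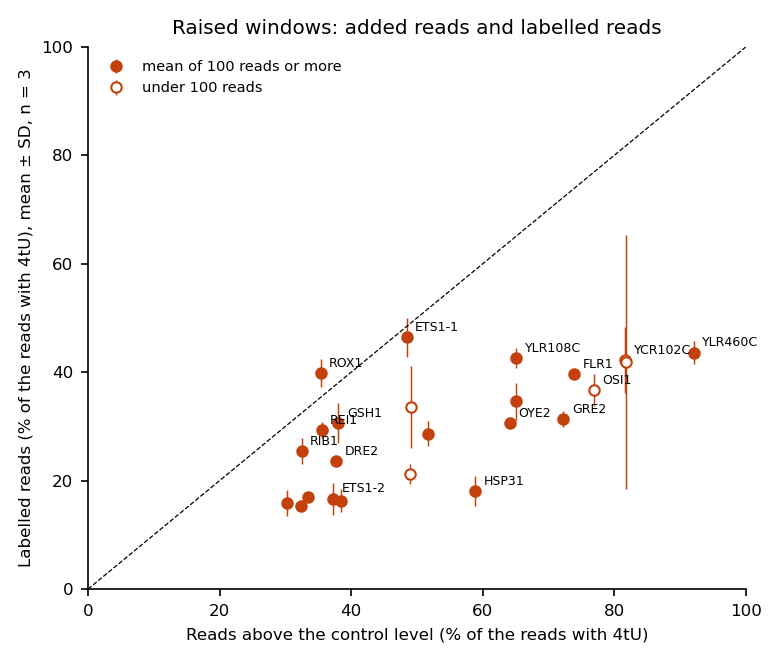
For each of the 24 raised windows, the percentage of its reads with 4tU that lie above the control level (x axis) and the percentage that are labelled (y axis, mean with SD bars, n = 3), with filled points for windows with a mean of 100 reads or more. The dashed line marks equal values, and ROX1 (35.4% and 39.9%) is above it, while YLR460C (92.1% and 43.6%) is far below it.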

How the data were processed

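The authors deposited, for each of the 18 libraries, 4 SLAM-DUNK 0.4.3 tables per the file headers, with read counts per gene window, counts of reads with T-to-C conversions (at least 1 or at least 2 conversions), and counts of covered and converted T positions. The tool fastp 0.23.2 and the builds R64 and ASM294v2 are named in the submitters' processing notes. The trimming and filter settings, the masking of strain variants, the strand setting of the counting and any use of molecular identifiers are not stated in the labels or headers, and PCR copies may be counted as separate reads.

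Libraries were scaled to summed S. pombe reads. Scaled reads are reads divided by that sum and multiplied by its mean over the 18 libraries. Windows with at least 10 reads in 3 libraries (6100) were tested with edgeR 4.0.16's quasi-likelihood F test, all 6 groups in 1 fit, with Benjamini-Hochberg adjustment at 0.05 (R 4.3.3). Standard errors come from the F statistic. Labelled reads were tested with the read count of the window as offset, against the control and against the median gene. DESeq2 1.42.0 and limma 3.58.1 served as alternatives. Windows were matched to R64 genes by systematic name (6462 of 6465), and 6459 had the coordinates of the gene plus 250 bp. Of all windows, 1316 overlap another on the same strand. On simulated counts from the real means, 100% of 2-fold rises and 82% of 1.5-fold rises were called in the comparison of total reads. Falls to 0.667 of the level were called in 76%. The simulation gave all genes the same spread, changed only genes above a minimum level, and made the S. pombe scaling exact. It therefore does not give the recovery in the real libraries.

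Named genes are the 12 largest rises and falls with at least 50 scaled reads, no overlap between groups and no overlapping window, up to 4 called members of each list, and the extremes and middles of net share with at least 500 reads. The remaining called windows, which complete the 35, and other genes given as examples were named after their values were seen. Members and lists were chosen with earlier results of these data known.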

Additional observations from a re-analysis of the deposited data

How the results depend on the processing

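None of the 12 raised and 11 lowered windows named by rank turned the sign of its change in the alternatives run. The 35 calls on total reads (24 raised, 11 lowered) became 103 (74 and 29, with all 35 shared) under TMM scaling, 124 (84 and 40, with 34 shared) in DESeq2 with its own size factors, and 23 (16 and 7) when only the 6 libraries were fitted. The cause was not tested, except that 6 libraries leave fewer residual degrees of freedom. DESeq2 with S. pombe factors gave 42 and no filter gave 37. Leaving out 1 library gave 21 to 36 calls, 16 to 30 raised and 4 to 20 lowered, and 14 raised and 2 lowered windows were called in all 12 alternatives. Without control C, the median log2 change of all windows was −0.0994, against 0.0475 without control A, and the calls turned from mostly raised to 16 raised and 20 lowered without control C. The strain difference had 0 calls under TMM scaling, DESeq2 with S. pombe factors, no filter, the replicate block and each left-out library, and was not run under the other settings. The labelled share exceeded the control in 4446 to 4575 genes on leaving out 1 library, with 1077 to 1141 genes high or low (319 to 366 high, 758 to 778 low) and a library-wide difference of 6.86 to 6.98 percentage points. A mean of 300 reads, which tests fewer genes (2395), gave 2385 above control and 696 high or low, 430 of them low. The replicate letters were not taken as pairs, since same-letter deviations correlated at 0.0652, 0.182 and 0.254 for A, B and C. The replicate block gave 37 calls (33 shared) and 4505 shares above control. Each DMSO library correlated best with its own letter, but control A correlated best with DMSO B. A gene with few control reads, such as YLR460C, has an imprecise control share.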

Other observations

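Label-like reads were present without 4tU in a few genes. The median control share was 0.361%, and 26 of the 4549 tested genes had more than 2%. CMC4, a mitochondrial intermembrane-space protein gene, had a control share of 20.0% ± 2.02 (SD, n = 3), 36.2%, 30.4% and 27.7% with 4tU in DMSO A, B and C, and 20.9% in the RDY73 control. POP8, a subunit of RNase MRP and RNase P, had 28.4% in control A but 1.55% and 2.07% in control B and C. Of the raised windows, YLR460C had a control share of 9.29% ± 4.17 and FLR1 of 4.49% ± 1.79 (SD, n = 3), against 0% and 1.75% in RDY73. ETS1-1 had 3.47% in both strains.

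Within the list for RNA polymerase II and its cofactors, TAF11, a TFIID subunit, had a net labelled share of 35.9% ± 1.38 (SE) and SRB2, a Mediator subunit, 2.56% ± 0.577, and the list median was 15.7%. Within the iron regulon, ISU1, the scaffold of iron-sulfur cluster assembly, had 42.2% ± 2.39 and FIT3, a cell-wall mannoprotein, 1.64% ± 0.244. RRN3, the initiation factor of RNA polymerase I, had 39.6% ± 2.63 where its list's median was 15.1%. Total reads of TAF11, SRB2, ISU1, FIT3 and RRN3 did not pass the test.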
